A study of Mus musculus with 26 samples.

Results

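Established mouse induced pluripotent stem cells (iPSC) were compared with embryonic fibroblasts on day 7 of reprogramming by Oct4 (the product of Pou5f1), Sox2 and Klf4 (OSK), gene by gene. Each group had 2 RNA-seq libraries, among 26 libraries in 13 groups. The genes compared were those reaching a value of 10 in 2 or more of these 4 libraries, which left 13615 of the 18198 in the table. The OSK day 7 cells were embryonic fibroblasts within 2 passages that had been infected with retroviruses carrying the factors and harvested as a population. The labels allow either of 2 media for the infected cells, iCD1 or a serum medium with LIF, and do not say which was used for a library. The iPSC came from picked colonies and were at passages 5 to 8 in N2B27 medium with 2i (as labelled) and LIF. Embryonic stem cells (ESC), the reference end point, were of strain CBA/CaJ X C57BL/6J, grown in the same N2B27 medium, at passages 20 to 24. Uninfected fibroblasts (MEF) at passage 2 in serum medium are given beside them where a result needs the starting cell. The strain of iPSC and fibroblasts and the number of colonies behind the iPSC libraries are not given in the sources used here. Medium, time in culture, picking of colonies and cell state changed together between day 7 and iPSC, so their parts in any difference below cannot be told apart.

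Reprogramming by these factors is known to begin with loss of the fibroblast programme and a shift to epithelial features, while the endogenous pluripotency network is switched on late and in few cells. In naive pluripotent cells that network (Nanog, Esrrb, Tfcp2l1, Klf2, Tbx3, Prdm14 and others) sustains itself without the delivered factors. LIF acts through Stat3, and 2i medium, as the term is commonly used, blocks the ERK kinase pathway and stabilises beta-catenin.

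Values are the authors' normalised scores, which had the same distribution in every library. Library totals ran from 4619641 to 4624161, so sequencing depth is unknown and no counting error can be given. The scale is capped: 21544 is the top value, held by 10 genes per library, and differences of genes at that value are understated. Every difference below is the mean log2(value + 1) in iPSC minus that at OSK day 7, with the standard error (SE) of limma and its Benjamini-Hochberg adjusted p over 16038 genes. A gene was called higher or lower at an adjusted p below 0.05 and a log2 difference of at least 1. Replicates correlated across genes at 0.9602 in iPSC and 0.9462 at OSK day 7. Whether replicates came from different cultures is not labelled, and p-values measure only the spread between replicate libraries, which may be technical. That spread was estimated over all 26 libraries in 13 groups, among them OSK cells with added cJun or a Sap30 hairpin. An SE is therefore not set by the 4 compared libraries alone. Where a gene is listed at 0 in both libraries of a group, its values are given without a fold. In a bulk sample, a lower value from fewer cells of a type cannot be told apart from less RNA per cell.

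Of the 13615 genes, 4485 (32.9%) were called by limma: 2201 were higher in iPSC (16.2%) and 2284 were lower (16.8%). These shares are the background for each list count below. The difference reached 3 on the log2 scale for 572 of the higher and 792 of the lower genes. The median difference over all 13615 genes was 0.11, and the libraries of the groups did not overlap for 10501 genes (77.1%). Among called genes, 109 were listed at 0 in both OSK day 7 libraries and 147 in both iPSC libraries. The filter left 787 genes that reached the minimum only through both iPSC libraries and 775 only through both day 7 libraries, and such genes had to differ. Among the lists described below, they were 2 of 15 naive factors, 2 of 12 antigen presentation genes, 3 of 11 LIF and Stat3 targets, 4 of 15 neural genes and 4 of 26 imprinted genes, and where a list had more of them than 2 their number is given with it. At its edge, the 1731 genes that reached the minimum in exactly 2 of the 4 libraries had a median highest value of 32, and the 941 that reached it in exactly 1 library, outside the rule, had one of 14.

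**Figure D1:**
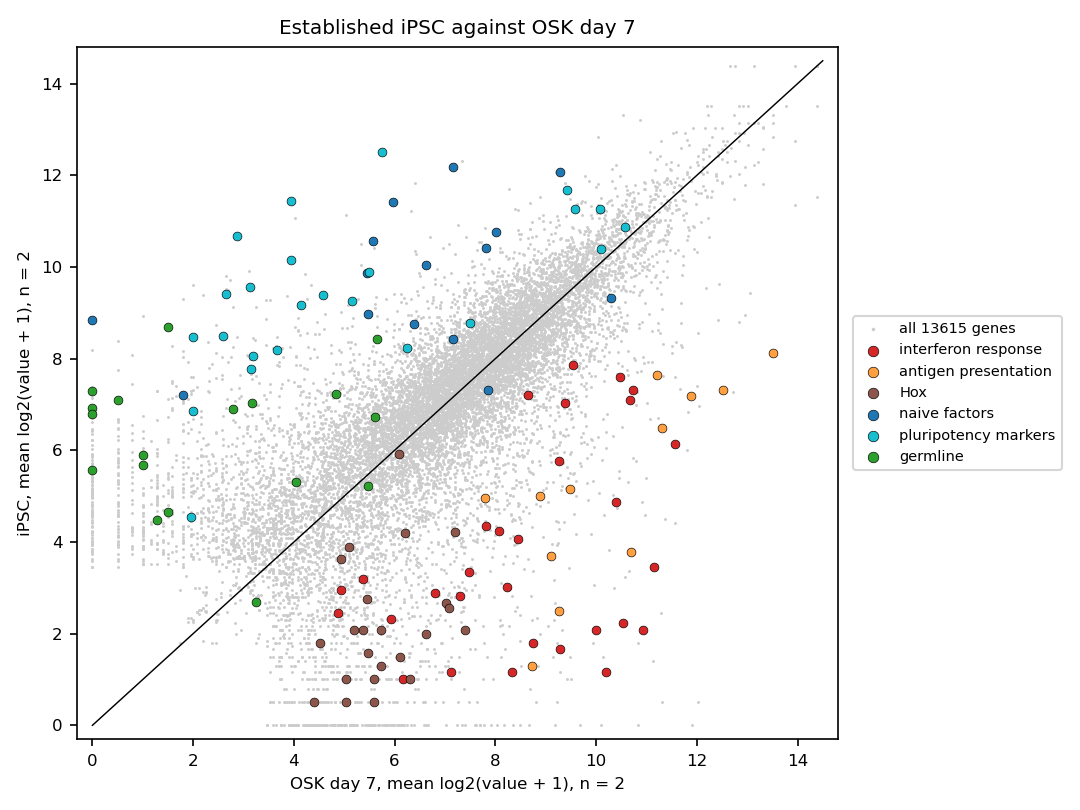
Mean log2(value + 1) of each of the 13615 genes at OSK day 7 (x axis) and in iPSC (y axis), n = 2 libraries per group, with the line of equal values and 6 gene lists in colour. All 24 pluripotency markers, 13 of 15 naive factors and 16 of 18 germline genes lie above the line, and all 30 interferon response, 12 antigen presentation and 23 Hox genes lie below it. Of these lists, 18 Hox, 13 interferon response, 11 germline and 6 pluripotency marker genes passed the filter through 1 group only and had to differ. The same held for 2 naive factors and 2 antigen presentation genes.

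The delivered factors were not higher in iPSC. Pou5f1 (chr17:35506032-35510777), which encodes Oct4, stood at 11662 and 5480 at OSK day 7 and at 4609 in each iPSC library, close to the 5014 and 5015 of ESC. Its log2 difference of -0.79 (SE 0.97, adjusted p = 0.547, limma) did not pass. Sox2, the partner of Oct4 on DNA, stood at 7717 and 6116 on day 7 against 2792 and 2939 in iPSC. This was a difference of -1.26 (SE 0.48, adjusted p = 0.0428, limma), and the call was lost when any 1 of the 4 libraries was left out. Klf4 (chr4:55527137-55532475) fell from 21544 and 11663 to 2614 in each iPSC library, a difference of -2.60 (SE 0.50, adjusted p = 0.000506, limma). ESC held less Klf4 than either group, at 836 and 1585. For all 3 genes the day 7 libraries lay above those of iPSC, with no overlap. Whether the authors' values for these 3 genes include transcripts of the delivered copies is not given in the sources used here. Myc, a factor left out of this cocktail, had overlapping values (349 and 95 against 92 and 151). Sap30, a subunit of the Sin3 deacetylase complex studied elsewhere in the series, stood at 301 and 378 against 424 and 433, with a log2 difference of 0.34 (SE 0.32, adjusted p = 0.412, limma). Jun, an AP-1 subunit, stood at 1010 and 582 against 297 and 355 and at 13 and 31 in ESC. Its difference of -1.24 (SE 0.37, adjusted p = 0.0125, limma) lost its call without iPSC replicate 1 or without OSK day 7 replicate 1.

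The endogenous network separated the groups. Of 15 naive pluripotency transcription factors, 13 were higher in iPSC and none was lower, with a median log2 difference of 3.43. Nanog (chr6:122707489-122714633), which stabilises the naive state, rose from 111 and 179 at OSK day 7 to 4616 in each iPSC library, against 5023 and 4616 in ESC. The log2 difference was 5.02 (SE 0.83, adjusted p = 0.000128, limma). Tbx3, a T-box factor, rose from 53 and 41 to 1540 and 1483 (4.99, SE 0.38, adjusted p = 3.34e-08, limma). Klf5, a relative of Klf4, rose from 50 and 37 to 914 and 964, a difference of 4.42. Prdm14, a repressor of differentiation and methylation genes, rose from 2 and 3 to 165 and 132. Tcl1, a cofactor of the Akt kinase, was listed at 0 in both day 7 libraries and stood at 414 and 500 in iPSC and at 344 and 315 in ESC. In each of these 5 genes the 2 iPSC libraries lay close together and far from those of day 7. The 2 factors not called were Gbx2, at 320 and 165 against 140 and 177, and Stat3, at 1153 and 1376 against 598 and 683. The Stat3 difference of -0.98 had an adjusted p of 0.000147 (limma) and missed the call on size. Without OSK day 7 replicate 2 the count of factors called was 8 in place of 13.

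Pluripotency markers that are not all transcription factors followed. Of 24, 20 were higher in iPSC and none lower, with a median difference of 4.73, and 6 of the 24 passed the filter through 1 group only. Lefty2 (chr1:180893108-180899107), a secreted inhibitor of Nodal, rose from 8 and 5 to 1590 and 1676, by 7.80 (SE 0.55, adjusted p = 1.63e-08, limma). Tdgf1, a Nodal co-receptor, rose from 16 and 13 to 3034 and 2542, above the 930 and 1610 of ESC. Utf1, a chromatin protein, rose from 10 and 6 to 809 and 701. Dppa4, a chromatin protein of the early embryo, rose from 5 in each library to 362 and 354. These 4 markers, picked for the smallest adjusted p, stood at 16 or less on day 7. The 4 of the list that did not pass stood at 66 or more. Both sets were picked by this same comparison, so no split by day 7 level is shown for the whole list. Alpl, the alkaline phosphatase used as a colony stain, stood at 1162 and 1987 against 1985 and 1792, with overlap. Jarid2 stood at 1029 and 1158 against 1423 and 1256, Gdf3 at 197 and 165 against 435 and 439, and Fut9, which makes the SSEA1 epitope, at 86 and 66 against 304 and 292. The median log2 level of the 24 markers was 4.24 and 4.20 in the day 7 libraries, 9.31 and 9.45 in iPSC and 9.22 and 9.31 in ESC.

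**Figure D2:**
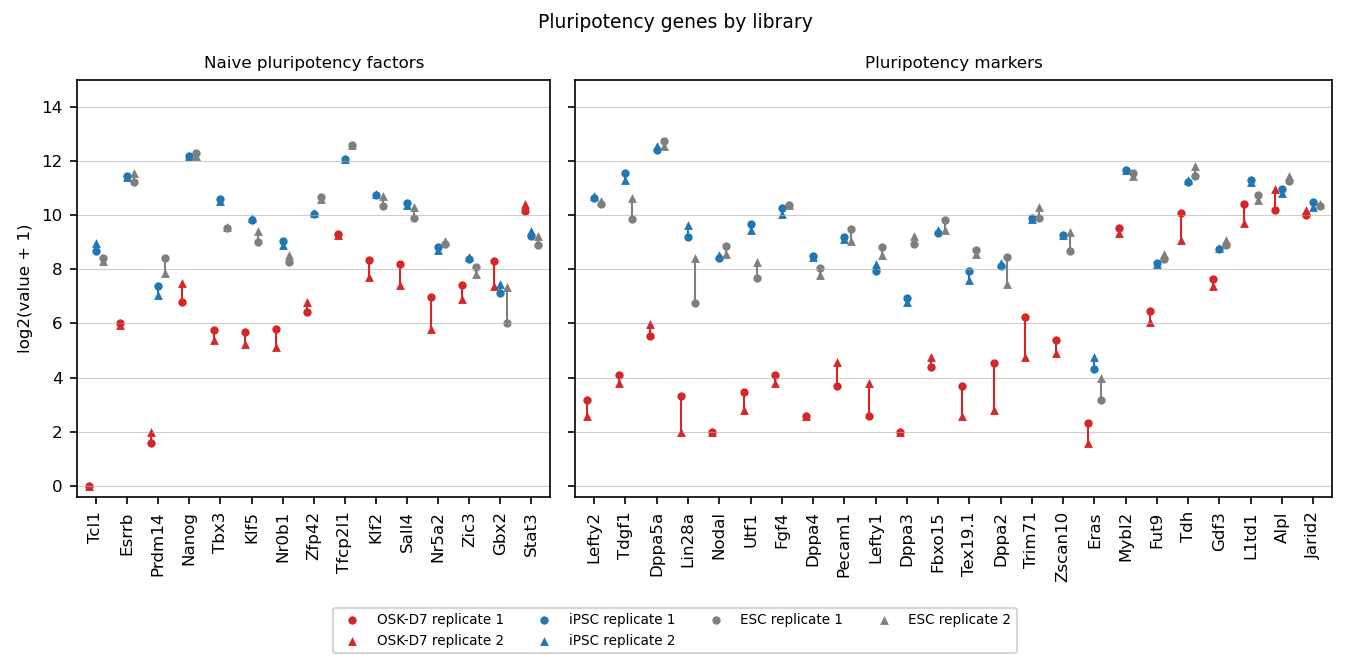
log2(value + 1) of the 15 naive pluripotency factors and 24 pluripotency markers in each OSK day 7, iPSC and ESC library, with a line joining the 2 libraries of a group. The iPSC points lie with those of ESC and above those of day 7 in most genes, while Gbx2, Stat3, Alpl and Jarid2 lie close to day 7.

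Nodal itself, the ligand that Lefty2 and Tdgf1 modulate, rose from 3 in each library to 344 and 367 (6.48, SE 0.72, adjusted p = 2.02e-06, limma). Its receptor gene Acvr2b rose from 5 and 2 to 44 and 39. In the list of 20 Nodal, BMP and Id genes, 9 were higher and 1 was lower, and 4 of the 20, Nodal and Acvr2b among them, passed the filter through 1 group only. The lower one was Id2, an inhibitor of bHLH factors, at 402 and 376 against 136 and 152, and its call was lost when any 1 of the 4 libraries was left out.

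Germline genes, many of which are silenced in somatic cells by DNA methylation or polycomb-type complexes, were also higher. The list had 24 genes, of which 21 were in the table and 18 passed the filter, 11 of them through 1 group only. Of the 18, 12 were higher in iPSC and none lower. Tdrd12, a piRNA pathway protein, rose from 1 and 3 to 447 and 375 (7.18, SE 0.74, adjusted p = 9.52e-07, limma). Hormad1, a protein of meiotic chromosome axes, was listed at 0 in both day 7 libraries and in both of MEF, and stood at 180 and 135 in iPSC and 264 and 221 in ESC. Mael, another piRNA factor, rose from 1 in each library to 59 and 43. Tuba3a, a testis tubulin whose reads may be shared with its near copy Tuba3b, rose from 1 and 0 to 210 and 89. These genes were at 4 or less in every MEF and day 7 library. The promoters of Hormad1 and Mael are shown because many germline promoters carry the E-box CACGTG, a site of Max dimers, or the E2F-type motif GCGGGAA. They are the 250 bases before the start of transcription, from RefSeq on GRCm38.p6, at chr3:95559427-95559676 on the plus strand and chr1:166238745-166238994 on the minus strand. Each is written 5′ to 3′ on the strand of the gene, with matches of either motif on either strand in capitals. Higher germline genes were taken in order of adjusted p, and only those with a match in these 250 bases were kept. The matches shown therefore follow from that choice. Tuba3a, taken the same way, held 1 match, of GCGGGAA, and its promoter is not shown.
Hormad1: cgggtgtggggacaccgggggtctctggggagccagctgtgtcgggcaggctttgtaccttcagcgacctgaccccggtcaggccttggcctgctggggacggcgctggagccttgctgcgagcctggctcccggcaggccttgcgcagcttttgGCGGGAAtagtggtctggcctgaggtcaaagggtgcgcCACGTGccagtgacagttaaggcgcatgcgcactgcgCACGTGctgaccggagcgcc
Mael: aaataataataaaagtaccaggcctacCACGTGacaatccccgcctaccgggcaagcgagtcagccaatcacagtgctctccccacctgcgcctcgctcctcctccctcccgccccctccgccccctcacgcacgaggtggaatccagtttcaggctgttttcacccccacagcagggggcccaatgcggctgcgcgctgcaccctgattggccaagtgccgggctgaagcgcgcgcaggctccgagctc
In RefSeq windows from 250 bases before to 50 after the start, all 12 higher germline genes had a promoter, 15 in all. CACGTG stood in 10 of the 15 (66.7%), against 7.15% of all 32851 promoters. GCGGGAA, on either strand, stood in 6 of the 15 (40.0%), against 4.60% of all. A match describes the letters of the window and not binding.

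In the 2-cell stage list, 6 of 6 genes that passed the filter were higher. Of these 6, 4 passed through the iPSC libraries only and had to be higher, so this count gives no direction for 2-cell stage genes. Zscan4c was listed at 0 in both day 7 libraries and stood at 63 and 56 in iPSC, and Zscan4f rose from 0 and 4 to 74 and 71. Zscan4 genes are near-identical copies that protect telomeres in rare stem cells, so their single values are uncertain. The others were Gm8300, at 9 and 10 against 79 and 74, and Eif1a, a translation factor gene. Eif1a rose from 501 and 399 to 968 and 996, and its call was lost without OSK day 7 replicate 2. MEF held Eif1a at 719 and 1049.

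Outside the lists, the 12 largest increases named by rule included Hsf2bp, a meiotic recombination gene, from 1 in each library to 529 and 452 (7.94, SE 0.69, adjusted p = 1.46e-07, limma). Trap1a, an X-linked gene, rose from 2 and 3 to 626 and 630, and Pnma5, also on X, from 0 and 1 to 489 and 225. Krt42, a keratin gene, was listed at 0 in both day 7 libraries and stood at 121 and 222. The zinc-finger genes Zfp640 and Zfp978 were listed at 0 in both day 7 libraries and stood at 142 and 193 and at 295 and 290. Zfp978 has near-identical neighbours that may share its reads. All 12 except Aspn stood at 165 or more in both ESC libraries. Aspn, a small matrix proteoglycan, was listed at 0 in both day 7 libraries, stood at 144 and 185 in iPSC, at 0 and 60 in ESC and at 655 and 3279 in MEF.

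The genes of the interferon response were lower in iPSC almost without exception. Interferons signal through STAT and IRF factors to a set of antiviral genes. Of 30 such genes, 29 were lower in iPSC and none higher, with a median log2 difference of -4.26, and 13 of the 30 passed the filter through 1 group only. Oas2, a sensor of double-stranded RNA, fell from 1456 and 1251 to 26 and 31 (-5.52, SE 0.24, adjusted p = 6.48e-11, limma). Rtp4 fell from 435 and 419 to 2 and 3, and Ifih1, the RNA sensor MDA5, from 301 and 239 to 14 and 23. The groups lay far apart in each of these genes, with ESC at the level of iPSC, where Oas2 stood at 20 and 19. MEF were also low, with Oas2 at 2 and 3. Irf1 alone was not called, at 821 and 682 against 203 and 268 (adjusted p = 0.0515, limma). Day 7 thus stood above iPSC, ESC and MEF in these genes. Infection, medium and cell state cannot be told apart here.

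Antigen presentation genes, many of them interferon targets, gave 12 of 12 lower genes with a median of -5.01. B2m (chr2:122147687-122153082), the invariant chain of class I MHC, stood at 11668 in each day 7 library and fell to 209 and 370 (-5.39, SE 0.37, adjusted p = 1.12e-08, limma). Tap1, a peptide transporter, fell from 1454 and 1900 to 15 and 11. Tapbp, which loads peptides, fell from 2150 and 2616 to 198 and 199, and Erap1, a peptide trimmer, from 460 and 486 to 30 and 32. The 12 largest decreases, which the rule picked for their size, include an immunoproteasome subunit and 3 GTPase genes. Of these, Psmb8 and Gbp2 are also on the interferon response list and are counted there, while Tgtp1 and Tgtp2 are on neither list. Psmb8, an immunoproteasome subunit, fell from 970 and 1433 to 0 and 4. Gbp2, a GTPase that acts on vacuoles of pathogens, fell from 2133 and 1798 to 5 and 2. Tgtp1 and Tgtp2 are near-identical GTPase genes, and their reads cannot be split with certainty: Tgtp1 stood at 4013 and 4307 against 1 and 0, and Tgtp2 at 2153 and 2358 against 0 and 6.

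Interferon-stimulated promoters are known to carry an interferon response element, searched here on both strands as GAAA, any 2 bases and GAAA again. The 250 bases before the start are shown for Gbp3, at 1483 and 699 on day 7 against 2 and 5 in iPSC, and for Ifit1, at 186 and 133 against 4 and 9. Ifit1 encodes a protein that binds foreign RNA. They lie at chr3:142559794-142560043 on the plus strand and chr19:34640639-34640888 on the plus strand (RefSeq, GRCm38.p6), and capitals mark matches on either strand, which in Gbp3 overlap each other. Both were chosen after their values were seen, among the lower interferon genes in order of adjusted p. Only genes with a match in these 250 bases were kept, so the matches shown follow from that choice.
Gbp3: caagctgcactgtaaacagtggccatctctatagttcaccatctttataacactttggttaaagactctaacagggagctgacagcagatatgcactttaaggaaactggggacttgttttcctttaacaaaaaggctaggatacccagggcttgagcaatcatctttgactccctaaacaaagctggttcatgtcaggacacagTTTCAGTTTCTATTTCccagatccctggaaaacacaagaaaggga
Ifit1: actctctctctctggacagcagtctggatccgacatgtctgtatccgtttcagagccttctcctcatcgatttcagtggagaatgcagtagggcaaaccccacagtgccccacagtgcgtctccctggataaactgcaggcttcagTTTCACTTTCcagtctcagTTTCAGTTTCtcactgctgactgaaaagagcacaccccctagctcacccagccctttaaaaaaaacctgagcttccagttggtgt
Of the 29 lower interferon genes, 23 had a RefSeq promoter, 27 in all. The motif stood in 15 of these 27 windows of 300 bases (55.6%), against 3.44% of all 32851, and in 3 of 10 windows (30.0%) of the lower antigen presentation genes. The 300-base windows of the 12 higher germline genes held it in 0 of 15.

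The other 8 of the 12 largest decreases included 2 myosin genes. Myh1 and Myh2, fast skeletal myosins, stood at 5033 and 2946 and at 1797 and 1828 on day 7 and were listed at 0 in both iPSC libraries. Avil (chr10:127000065-127020994), an actin-severing protein of sensory neurons, fell from 2307 and 2791 to 0 and 1, a difference of -10.81 (SE 0.70, adjusted p = 1.32e-08, limma). Pkp1, a plakophilin of desmosomes, stood at 913 and 1325 and was listed at 0 in both iPSC libraries. The aldehyde dehydrogenase gene Aldh3a1 fell from 2465 and 2539 to 4 and 5, and Ano1, a chloride channel, from 2190 and 1518 to 1 and 5. Clec3b (590 and 1138) and the noncoding Miat (545 and 621) were also listed at 0 in both iPSC libraries. All of these genes were at 41 or less in MEF and at 17 or less in ESC, while on OSK day 3 none was below 223, the value of Pkp1 in replicate 1. Of 7 other skeletal and cardiac muscle markers past the filter, 5 were higher in iPSC and none lower, but 5 of the 7 passed through 1 group only, so this count gives no direction for muscle genes. Des, an intermediate filament, rose from 5 and 1 to 89 and 81, and Tnnt1, a troponin, from 3 and 2 to 37 and 30. Their levels stayed low, and Acta1 and Myl4 were listed at 0 in both day 7 libraries.

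Hox genes, which encode position along the body axis and are silent in pluripotent cells, were nearly all lower among those past the filter. The table held 32 of them, and 23 passed the filter. Of these, 18 passed through the day 7 libraries only and had to be lower, so the count and median rest mainly on the filter. Of the 23, 21 were lower in iPSC and none higher, with a median difference of -3.90. Hoxb6 (chr11:96292814-96301569) fell from 39 and 57 to 0 and 1, a difference of -5.09 (SE 0.44, adjusted p = 1.3e-07, limma). Hoxb3 fell from 127 and 141 to 6 and 4, Hoxa2 from 71 and 38 to 2 and 1, and Hoxb7 from 27 and 37 to 1 in each library. MEF held these genes at levels like those of day 7, with Hoxb6 at 61 and 68 and Hoxb3 at 138 and 95. The median log2 level of the 23 genes was 5.98 and 5.52 on day 7, 1.58 and 2.00 in iPSC and 1.58 and 1 in ESC. Hoxb9, which was not called, had overlapping values of 88 and 51 against 45 and 79.

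**Figure D3:**
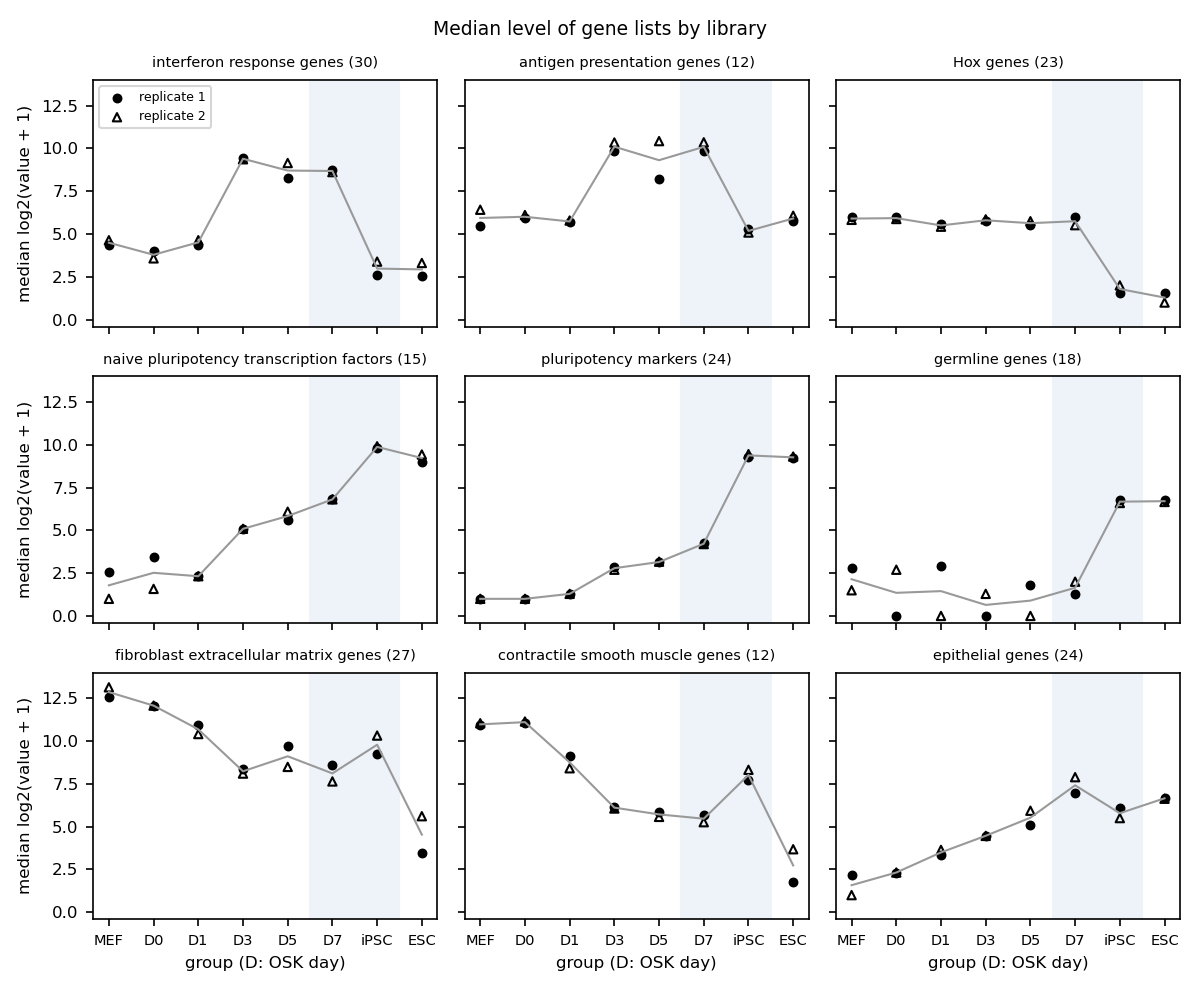
Median log2(value + 1) of 9 gene lists in each library of MEF, OSK days 0, 1, 3, 5 and 7, iPSC and ESC; points are libraries, lines join group means, shading marks the pair compared, and panel titles give the number of genes. Interferon response and antigen presentation genes are high from day 3 to day 7 and low in iPSC, Hox genes stay level until day 7, and matrix and contractile genes are higher in iPSC than at day 7 and low in ESC.

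Epithelial genes, which OSK cells had gained by day 7, were partly lower in iPSC. Of 24 genes, 7 were lower and 1 was higher. Krt8, a simple-epithelium keratin, fell from 614 and 759 to 58 and 41 (-3.78, SE 0.91, adjusted p = 0.00329, limma). Dsp, the desmosome linker, fell from 1099 and 1056 to 227 and 266. Pkp3, a further plakophilin, fell from 57 and 83 to 10 and 9. Epcam, an adhesion molecule of epithelial and stem cells, stood at 971 and 2619 against 303 and 269, and its call was lost without OSK day 7 replicate 2. The tight junction gene Cldn6 rose from 7 and 10 to 75 and 48. Cdh1, which encodes E-cadherin and is named here after its values were seen, stood at 1704 and 1993 against 2153 and 2313, a log2 difference of 0.28 (SE 0.87, adjusted p = 0.835, limma). Without OSK day 7 replicate 2 the count of epithelial genes called was 4 in place of 8.

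Keratinocyte genes were few, with 7 of 18 past the filter, 4 through 1 group only, and of the 7 there were 4 lower and 1 higher. Lgals7, a galectin of stratified epithelium, fell from 294 and 450 to 1 and 2 (-7.22, SE 0.62, adjusted p = 1.46e-07, limma), and Perp, a desmosome protein, from 274 and 217 to 57 and 55. Krt17 rose from 1 and 0 to 22 and 27. The summed value of the 18 markers was 956 and 941 on day 7 and 242 and 277 in iPSC, with 12 and 11 markers at 0 in the iPSC libraries. Of 15 neural genes, 7 were lower and 2 higher. Sox11, a neural progenitor factor, fell from 720 and 768 to 87 and 93 (-3.03, SE 0.22, adjusted p = 2.43e-08, limma). Map2, a microtubule protein of dendrites, fell from 286 and 389 to 116 and 132. Stmn2, a tubulin regulator of growing axons, rose from 519 and 545 to 1379 and 1508. Syt1 stood at 282 and 398 against 31 and 0, and its call was lost without iPSC replicate 2.

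Early lineage lists were mixed. Of 10 trophoblast genes past the filter, 5 through 1 group only, 4 were higher and 2 lower. Tfap2c, which is also a germ cell factor, rose from 35 and 30 to 442 and 375, and Eomes, also of mesendoderm, from 6 and 4 to 45 and 33. Ascl2 was listed at 0 in both day 7 libraries and stood at 20 and 18. Elf5, a trophoblast stem cell factor, fell from 21 and 18 to 1 and 0, and Prl2c2, which has near copies, stood at 70 and 68 on day 7 and was listed at 0 in both iPSC libraries. The marker sum was 2797 and 1280 on day 7 and 1150 and 890 in iPSC. Where all 13615 genes gave 16.8% lower and 16.2% higher, 3 of 12 primitive endoderm genes were lower and none higher. These were the basement membrane collagens Col4a1, from 3415 and 3158 to 364 and 535, and Col4a2, from 2402 in each library to 331 and 463, and the proteoglycan gene Srgn, from 909 and 544 to 8 and 12. Fibroblasts also express these collagens, Col4a1 at 6129 and 5030 in MEF. The list of primed pluripotency and mesendoderm genes had 8 past the filter, 4 through 1 group only, with 5 higher and 3 lower. Otx2, a factor of the primed epiblast, rose from 1 and 0 to 92 and 104, and Zic2 from 16 and 6 to 331 and 297. The Wnt ligand gene Wnt8a fell from 53 and 26 to 1 and 0.

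**Figure D4:**
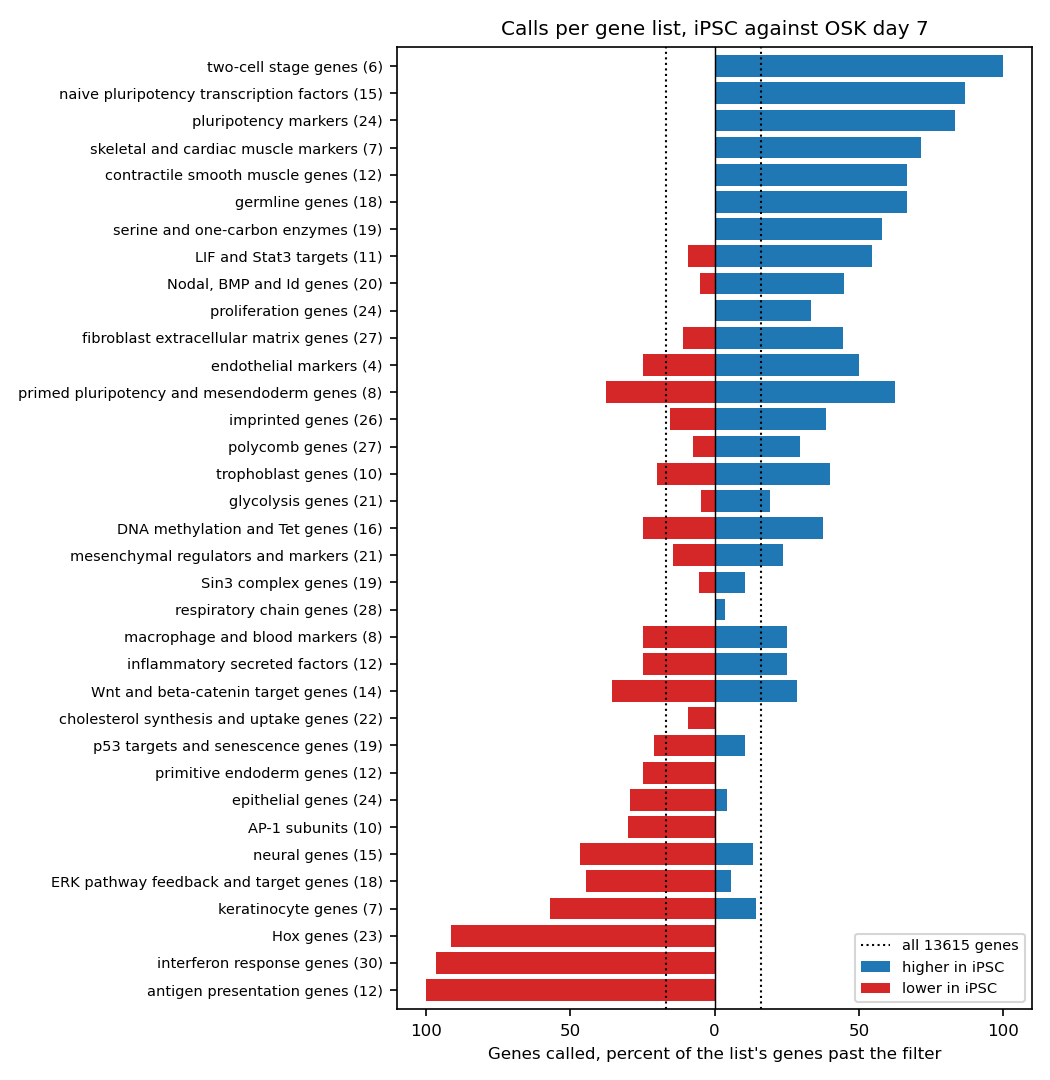
Percent of the genes past the filter that were called higher (right, blue) or lower (left, red) in iPSC than at OSK day 7, for 35 gene lists with the number of genes in brackets; dotted lines give the same over all 13615 genes, 16.2% higher and 16.8% lower. Interferon response, antigen presentation and Hox genes reach farthest to the left, and the 2-cell stage and pluripotency lists farthest to the right.

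Of 27 fibroblast matrix genes, 12 were higher in iPSC than on day 7 and 3 were lower, with a median difference of 0.96. Col12a1 (chr9:79598987-79721141), a fibril-associated collagen, rose from 117 and 59 to 2150 and 6115, by 5.43 (SE 0.74, adjusted p = 2.47e-05, limma). It stood at 8 and 67 in ESC and at the cap of 21544 in MEF. Col5a1, which starts collagen fibrils, rose from 216 and 83 to 1076 and 1942. Loxl1, a cross-linking oxidase, rose from 13 and 6 to 125 and 249, and the proteoglycan gene Fmod from 1 in each library to 19 and 56. In each of these genes iPSC replicate 2 was above replicate 1, and both were above day 7 and ESC and below MEF. The 3 lower genes were Col6a2, from 1478 and 1417 to 233 and 472 (-2.12, SE 0.53, adjusted p = 0.00411, limma), Col6a1, from 2260 and 1989 to 368 and 686, and the fibrillin gene Fbn1, from 1590 and 1179 to 282 and 640. The calls of Col6a2 and Fbn1 were lost without iPSC replicate 1, and that of Col6a1 when any 1 of the 4 libraries was left out. So the collagen VI genes and Fbn1 moved opposite to Col12a1 and Col5a1.

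Contractile genes gave 8 higher and none lower of 12, with 5 of the 12 past the filter through 1 group only. Tagln (chr9:45929628-45936058), an actin-binding protein of smooth muscle, rose from 8 and 5 to 251 and 505, by 5.60 (SE 0.64, adjusted p = 3.73e-06, limma). Myl9, a myosin light chain, rose from 9 and 3 to 92 and 159, and Tpm2, a tropomyosin, from 52 and 24 to 175 and 256. Cnn1, calponin, was listed at 0 in all day 7 and ESC libraries and stood at 19 and 55 in iPSC and 491 and 826 in MEF. Without iPSC replicate 2 or OSK day 7 replicate 1 the count called was 5 in place of 8. Among 21 mesenchymal regulators and markers, 5 were higher and 3 lower, where all 13615 genes gave 16.2% and 16.8%. Cdh2, or N-cadherin, fell from 726 and 656 to 80 in each library (-3.09, SE 0.18, adjusted p = 2.17e-09, limma), and Vim, or vimentin, from the cap of 21544 in each library to 2411 and 3615. Twist1, a mesenchymal regulator, fell from 155 and 59 to 11 and 34. The surface marker gene Thy1 stood at 47 and 14 against 208 and 372, Prrx2 at 5 and 4 against 27 and 44, and the receptor gene Pdgfrb at 32 and 8 against 84 and 147. Calls of Thy1 and Prrx2 were lost without iPSC replicate 2 or without OSK day 7 replicate 2, and the count called in this list was then 5 in place of 8.

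Levels of fibroblast markers are given beside these results because the iPSC libraries held them. The summed value of 9 markers was 7785 and 14342 in iPSC, 11587 and 11021 on day 7, 216 and 736 in ESC, and 78812 and 82740 in MEF, and none of the 9 was at 0 in any of these libraries. Over 28 matrix genes, the median level was 8.20% and 15.8% of MEF in the iPSC libraries, 9.13% and 3.85% in those of day 7, and 0.157% and 0.646% in ESC. The sum of 15 naive pluripotency markers was 20961 and 20985 in iPSC and 20981 and 22160 in ESC. The median log2 level of the 15 naive transcription factors was 9.84 and 9.91 in iPSC and 9.02 and 9.43 in ESC. Single genes lay on either side of ESC, Tbx3 at 1540 and 1483 in iPSC and 747 and 761 in ESC, and Prdm14 at 165 and 132 in iPSC and 341 and 233 in ESC. Summed fibroblast markers stood above ESC in both iPSC libraries. The part of fibroblasts in the matrix, mesenchymal and contractile differences was not tested.

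**Figure D5:**
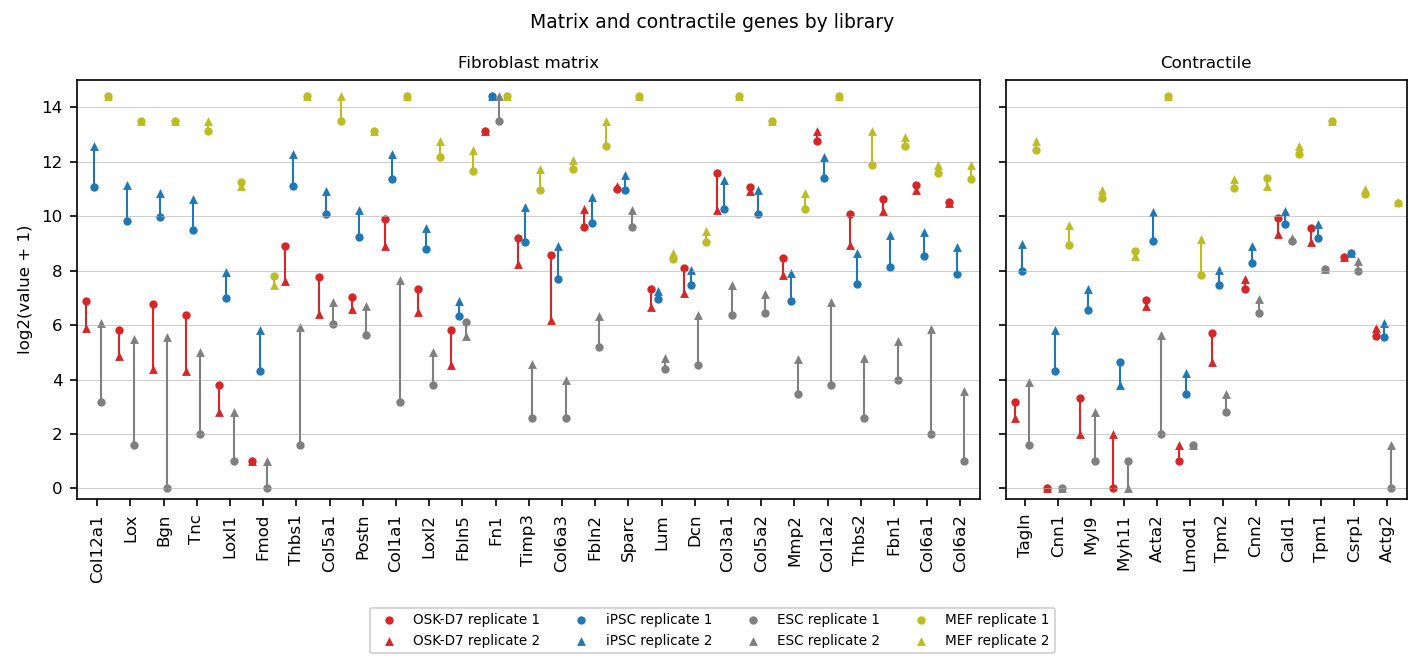
log2(value + 1) of the 27 fibroblast matrix genes and 12 contractile genes past the filter in each OSK day 7, iPSC, ESC and MEF library, with a line joining the 2 libraries of a group; points at the top are at the cap of the scale. For genes such as Col12a1, Lox and Tagln the iPSC points lie between those of day 7 and MEF, while Fbn1, Col6a1 and Col6a2 lie below day 7.

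Markers of macrophage and blood cells and of endothelial cells summed to less than those of fibroblasts in both groups. The sum of 15 macrophage and blood markers was 588 and 443 on day 7 and 790 and 804 in iPSC, with 3 markers at 0 in each day 7 library and 1 in each iPSC library. Of the 8 past the filter, 2 were higher and 2 lower. Cd53 was listed at 0 in both day 7 libraries and stood at 43 and 47 in iPSC, and Laptm5 rose from 128 and 110 to 552 and 545. Cd53 was also listed at 0 in both ESC libraries and stood at 43 and 116 in MEF. Laptm5 stood at 411 and 537 in ESC and at 27 and 171 in MEF. Mpeg1, a macrophage pore protein, fell from 312 and 167 to 10 and 19. Ptprc, the common leukocyte antigen, stood at 44 and 18 on day 7 and was listed at 0 in both iPSC libraries. The calls of Laptm5 and Mpeg1 were lost without iPSC replicate 1. Without OSK day 7 replicate 2 that of Laptm5 was lost, and without OSK day 7 replicate 1 those of Mpeg1 and Ptprc. The count called was 2 in place of 4 without replicate 1 of either group. Endothelial markers summed to 335 and 488 on day 7 and 287 and 262 in iPSC, and 4 of the 12 passed the filter, of which 2 were higher and 1 lower. Egfl7, a secreted vessel protein, rose from 7 and 6 to 196 and 136. Tek, the Tie2 receptor, fell from 287 and 465 to 29 and 44.

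Targets of the pathways that 2i and LIF act on also differed. Of 18 ERK feedback and target genes, 8 were lower and 1 was higher, with a median of -1.05. Spry4, an inhibitor of the pathway that is itself induced by it, fell from 723 and 363 to 31 and 40 (-3.83, SE 0.66, adjusted p = 0.000225, limma), and stood at 0 and 8 in ESC. Spred1, of the same family, fell from 712 and 620 to 311 and 282. Ccnd1, the cyclin induced by growth factors, fell from 3263 and 3406 to 858 and 956. Spry1 went the other way, at 51 and 15 against 73 and 74, and its call was lost without either iPSC library or without OSK day 7 replicate 2. Of 14 Wnt and beta-catenin targets, 3 of them past the filter through 1 group only, 5 were lower and 4 higher, with a median of -0.02. Apcdd1, a Wnt inhibitor, fell from 886 and 1404 to 55 and 54, and Nkd1, a further feedback inhibitor, from 1344 and 1729 to 5 and 14 (-7.33, SE 0.67, adjusted p = 2.91e-07, limma). Bambi rose from 14 and 15 to 74 and 60, and Lgr5, a receptor that enhances Wnt signals, from 4 and 5 to 27 and 43. ESC held Bambi at 49 and 47 but Lgr5 at only 2 and 10, and MEF held them at 77 and 66 and at 72 and 421. The call of Lgr5 was lost with iPSC, day 7, ESC and MEF libraries only in the fit. Axin2, the common readout gene, named after its values were seen, overlapped at 345 and 384 against 380 and 456. So known targets of beta-catenin did not move one way.

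Of 11 LIF and Stat3 targets, 6 were higher and 1, Klf4, was lower, with a median of 2.08. Pim1, a kinase gene, rose from 156 and 83 to 970 and 1024, by 3.12 (SE 0.51, adjusted p = 0.000143, limma). Pramef12 rose from 5 and 4 to 243 and 316. Pramel7 was listed at 0 in both day 7 libraries and stood at 20 and 15. Secreted inflammatory factors were mixed, with 3 higher and 3 lower of 12, where all 13615 genes gave 16.2% higher and 16.8% lower. Spp1, or osteopontin, rose from 163 and 159 to 5504 and 4631 (4.96, SE 0.48, adjusted p = 6.86e-07, limma), and ESC held 3421 and 4026. The chemokine gene Ccl2 stood at 464 and 392 against 51 and 128, a call lost without iPSC replicate 1 or without either day 7 library. Il6 was listed at 0 in both day 7 libraries and stood at 11 and 19 in iPSC, a call lost without replicate 2 of either group. Ccl2 and Il6 were listed at 0 in both ESC libraries. MEF held Ccl2 at 182 and 221 and Il6 at 17 and 30. Without iPSC replicate 1 the count called in that list was 2 in place of 6, and without OSK day 7 replicate 1 or 2 it was 3.

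Chromatin regulators changed member by member. Tet1 (chr10:62804570-62887469), which oxidises methylated cytosine, rose from 36 and 28 to 2405 and 2076, by 6.09 (SE 0.58, adjusted p = 4.23e-07, limma). Tet3, of the same family, fell from 350 and 208 to 89 and 44. Dnmt3l (chr10:78042287-78063622), a cofactor of the de novo methyltransferases, rose from 3 and 1 to 525 and 349, while ESC held 57 and 30. Dnmt3b, one of those enzymes, rose from 111 and 56 to 537 and 451. Trim28, a corepressor that guides silencing to retroelements, rose from 2616 and 2401 to 6923 in each library. The methyl-binding gene Mbd2 fell from 243 and 227 to 102 and 105. In all, 6 of 16 DNA methylation genes were higher and 4 lower. Of 27 polycomb genes, 8 were higher and 2 lower, where all 13615 genes gave 16.2% higher and 16.8% lower. Eed (chr7:89954654-89980976), a core subunit of PRC2, rose from 145 and 200 to 663 and 706, by 2.00 (SE 0.19, adjusted p = 4.23e-07, limma). Its partner Mtf2 rose from 424 in each library to 1706 and 1543. Kdm2b and L3mbtl2, which recruit variant PRC1, rose from 180 and 130 to 591 and 513 and from 187 and 166 to 723 and 727. Phc2, of canonical PRC1, fell from 633 and 768 to 138 and 139 (-2.32, SE 0.15, adjusted p = 4.01e-09, limma). For each of the 5 genes named here, ESC lay on the same side of day 7 as iPSC.

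The Sin3 complex list, to which Sap30 belongs, had 2 higher and 1 lower of 19, where all 13615 genes gave 16.2% higher and 16.8% lower. Ing1, a reader of methylated histone, rose from 154 and 96 to 415 and 365, by 1.67 (SE 0.25, adjusted p = 5.93e-05, limma). Sap30l stood at 131 and 71 against 220 and 204, and Ogt at 2400 and 5481 against 1671 and 1607. Calls of both were lost without either iPSC library or without OSK day 7 replicate 2, which left 1 gene called. Among 10 AP-1 subunits past the filter, 3 were lower and none higher, beside the same shares over all genes. Besides Jun these were Jund, at 1046 and 1177 against 553 and 547, and Mafk, at 191 and 59 against 43 and 54. The call of Jund was lost without OSK day 7 replicate 2, and that of Mafk without either iPSC library or OSK day 7 replicate 1. Without iPSC replicate 1 the count was 1.

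Enzymes that feed one-carbon units and glycine were mostly higher. Of 19, 11 were higher and none lower, with a median of 1.33. Gldc (chr19:30098441-30175441), the glycine decarboxylase, rose from 22 and 14 to 1099 and 780, by 5.64 (SE 0.73, adjusted p = 1.18e-05, limma), above the 423 and 523 of ESC. Further genes of the glycine cleavage system rose, Gcsh from 169 and 163 to 704 and 741 and Amt from 41 and 78 to 505 and 428. Shmt1, which moves carbon from serine to folate, rose from 229 and 142 to 741 and 749. Glycolysis genes gave 4 higher and 1 lower of 21, with a median of 0.00, beside 16.2% higher and 16.8% lower over all 13615 genes. The glucose transporter gene Slc2a3 rose from 937 and 1163 to 7721 and 6930, Hk2, a hexokinase, from 528 and 241 to 1608 and 1518, and Ldhb from 261 and 690 to 1904 and 2126. Of 28 respiratory chain genes 1 was called, Cox7a1, at 2 and 8 against 24 and 29. Its call was lost without either iPSC library or without OSK day 7 replicate 1. Atp5b stood at the cap of 21544 in all 4 libraries, and Atp5a1 at 5024 and 6930 against 6124 and 7721. Of 22 cholesterol genes 2 were lower, beside 16.8% over all 13615 genes. Among them was Ebp, a sterol isomerase, from 379 and 483 to 147 and 160.

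Several genes of DNA replication were higher in iPSC. Of 24 proliferation genes, 8 were higher and none lower, with a median of 0.65. Mcm3 and Mcm4, subunits of the replicative helicase, rose from 964 and 809 to 2797 and 2715 and from 1133 and 628 to 2949 and 2627. Ccne1, the cyclin of S-phase entry, rose from 218 and 141 to 892 and 911 (2.36, SE 0.33, adjusted p = 2.69e-05, limma). Bub1, a mitotic checkpoint kinase, rose from 484 and 387 to 968 and 878, a call lost without OSK day 7 replicate 2. Mki67, a general marker named after its values were seen, stood at 3778 and 2078 against 1796 and 1677 (adjusted p = 0.298, limma). Without OSK day 7 replicate 2 the count called was 5 in place of 8. Of 19 p53 targets and senescence genes, 4 were lower and 2 higher, where all 13615 genes gave 16.8% lower and 16.2% higher. Cdkn1a, the p21 inhibitor, fell from 1651 and 1769 to 609 and 801 (-1.29, SE 0.21, adjusted p = 0.000127, limma). Igfbp3 fell from 1278 and 591 to 126 and 226.

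Imprinted genes, expressed from 1 parental copy, had 10 higher and 4 lower of 26, with a median of 0.03. Slc38a4 (chr15:96994816-97055956), an amino acid transporter, rose from 14 and 4 to 1056 and 885, by 6.80 (SE 0.63, adjusted p = 4.44e-07, limma). Plagl1, a growth regulator, rose from 169 and 126 to 1297 and 1203, and Mest from 59 and 39 to 178 and 160. Nnat fell from 313 and 585 to 20 and 4, and Grb10, a growth inhibitor, from 1773 and 1255 to 333 and 512. Xist, the noncoding RNA that silences an X chromosome in female cells, stood at 1831 and 779 on day 7, 174 and 309 in iPSC, 26 and 31 in ESC and 1615 and 3617 in MEF. Its difference of -2.36 (SE 0.79, adjusted p = 0.0253, limma) was lost without iPSC replicate 1 or without OSK day 7 replicate 1. Tsix, its antisense partner, named after its values were seen, was listed at 0 in both day 7 libraries and stood at 78 and 69. The kit as labelled does not mark strand, so reads shared by Xist and Tsix cannot be assigned by strand. Tsix was nonetheless listed at 0 in both MEF libraries as well, where Xist was high. How the authors' processing split such reads is not given in the sources used here.

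The called genes were sorted by 2 comparisons that share no library with this one. Between ESC and MEF, 24.1% of the 13615 genes were higher in ESC and 19.8% lower. Of the 2201 genes higher in iPSC, 1356 (61.6%) were higher in ESC than in MEF, 221 (10.0%) were lower and 624 were not called. They made up 41.4% of the 3275 genes higher in ESC. Of the 2284 genes lower in iPSC, 1163 (50.9%) were lower in ESC than in MEF, 43.1% of 2697 such genes, and 920 (40.3%) were not called between them. Among genes named here, Myh2 was low in both, at 2 and 0 in MEF and 1 and 2 in ESC. Between OSK day 3 and day 0, 9.09% of genes rose and 8.18% fell. Of the 2284 genes lower in iPSC, 635 (27.8%) had risen by day 3, which was 51.3% of all 1237 genes that rose then, and 139 (6.09%) had fallen. Of the 2201 higher in iPSC, 378 (17.2%) had fallen by day 3, 33.9% of the 1114 that fell, and 99 (4.50%) had risen.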

How the data were processed

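The 26 libraries were built from TRIzol RNA using TruSeq chemistry, and a NextSeq 500 read them, per the labels' protocols. The submitters' processing notes name bcl2fastq, Bowtie2, RSEM and the mm10 build, without versions or roles. The deposited values are a normalised score made by the authors, whole numbers whose sorted values agreed between libraries to within 2 at every rank. How they were normalised is not given in the sources used here, no read depth can be recovered, and 10 genes per library share the cap of 21544. Such equalised values hide any difference in total RNA between groups. The table held 18198 genes, 18039 with a symbol of the GRCm38 annotation, and 0 sample columns were left unused.

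Values plus 1 were taken to log2. The 16038 genes at 10 or more in at least 2 of 26 libraries were fitted with limma 3.58.1 (R 4.3.3, statmod 1.5.0) with 1 mean per group over all 26 libraries, so that groups share one estimate of spread, with a variance trend and robust moderation. The design had assumed that the table might hold counts, and the limma test on log2 values was used for the score. Genes were called at a Benjamini-Hochberg adjusted p below 0.05 and a log2 difference of at least 1. The 13615 genes compared are those tested that reached 10 in 2 or more of the 4 iPSC and OSK day 7 libraries. The fit was tested on simulated data. Members and lists were chosen with earlier results of these data known, and lists are described by counts and medians, with no test of the list. Named were 8 genes always looked at (Pou5f1, Sox2, Klf4, Myc, Jun, Sap30, Nanog and Xist), the 12 largest increases and 12 largest decreases among called genes whose libraries did not overlap and whose mean was at least 50 in the higher group, leaving out model, clone and pseudogene symbols, and for each list the called genes with the 4 smallest adjusted p in each direction, or the 4 with the highest level where fewer than 2 were called. Genes named outside this rule were chosen after their values were seen. Some genes that the rule names are not reported here.

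Replicate numbers did not pair the groups: deviations from the group means of same-numbered iPSC and OSK day 7 libraries correlated at -0.0486. Alternatives were 14 fits with other libraries, added constants, filters, centring, variance models or a replicate block, or without 1 library. Promoters (32851 windows) are from RefSeq on GRCm38.p6, and motifs were searched as exact letters on both strands. Coordinates are of the GRCm38 (mm10) build, from GENCODE for genes. Plots used Python 3.11.15 with matplotlib 3.10.9.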

Additional observations from a re-analysis of the deposited data

How the results depend on the processing

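Over the 14 alternatives, calls between iPSC and OSK day 7 ran from 3715 to 4578 against 4485 as reported, and the higher genes made up 46.5% to 50.4% of them. The lowest count came without OSK day 7 replicate 2. With a replicate block 4578 genes were called, of which 4475 were among the 4485. The labels give no meaning to the shared numbers, and the block changed no count of a list by more than 1.5 times. Of 184 genes named by rule and called, 144 were called under all 14 alternatives, 40 lost the call under at least 1, and 0 reversed. Of the 4 fits without 1 library, the range of calls was 3715 to 4396.

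Counts of genes called in a list that moved by more than 1.5 times are given, with any reported count after the words "in place of". The cause was not tested. With 0.1 in place of 1 added, naive factors gave 8 in place of 13, epithelial genes 5 in place of 8, and respiratory chain genes 0 in place of 1. With only the 4 iPSC and day 7 libraries in the fit, which leaves fewer samples to estimate the spread, ERK genes gave 5 in place of 9, mesenchymal genes 5 in place of 8, AP-1 subunits 1 in place of 3 and Sin3 genes 1 in place of 3. With iPSC, day 7, ESC and MEF libraries only, AP-1 subunits and Sin3 genes each gave 1 and respiratory chain genes 2, and without the variance trend and robust moderation Sin3 genes gave 1. Leaving out 1 library gave 8 to 12 naive factors, 5 to 8 mesenchymal, 5 to 7 contractile, 4 to 11 epithelial, 2 to 5 inflammatory, 2 to 4 macrophage, 5 to 9 proliferation, 1 to 4 AP-1, 1 to 4 Sin3 and 0 to 1 respiratory chain genes. Without genes listed at 0 in a group, the median difference of germline genes was 3.17 in place of 3.98, and that of the 2-cell stage genes 3.03 in place of 3.90; this alternative was added after seeing the data.

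With 2 libraries per group, equalised values and a capped scale, the precision for small differences is limited and differences of genes at the cap are understated, and a gene listed at 0 gives no bound on its fold.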

Other observations

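Gene families that the lists hold in part or not at all were examined after their values had been seen, so the counts below are descriptions. All 8 genes of the Xlr family on X past the filter were higher in iPSC than at OSK day 7, but 7 of them passed through the iPSC libraries only and had to be higher. Xlr3a rose from 6 and 9 to 363 and 198 and Xlr3b from 26 and 36 to 252 and 163, with ESC at 289 and 155 and at 289 and 178. Xlr5a was listed at 0 in both day 7 libraries and stood at 102 and 64 in iPSC. The family consists of close copies, so the split between its members is uncertain. All 5 Nlrp genes past the filter passed through the iPSC libraries only, so that their being higher was fixed by the filter and only their levels are of use. Nlrp4f, of an oocyte and embryo branch of the family, rose from 5 and 0 to 176 and 140, and stood at 271 and 213 in ESC, while Nlrp4a was listed at 0 in both day 7 libraries and stood at 38 and 43 in iPSC. The zinc-finger gene Rex2 rose from 18 and 13 to 2256 and 2074, and its near copy Zfp600 from 10 and 3 to 962 and 743.

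Of 14 Klf family genes, 9 were higher and 1, the delivered Klf4, was lower. Klf9 rose from 54 and 42 to 544 and 559 (3.51, SE 0.22, adjusted p = 4.01e-09, limma) and Klf8 from 45 and 36 to 223 and 247. Of 10 Sox family genes, 6 were lower and 3 higher. Sox13 stood at 1562 and 1585 on day 7 against 219 and 208 in iPSC, Sox21 at 429 and 411 against 110 and 50, and both were low in MEF, at 15 and 10 and at 1 and 0.

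All 7 guanylate-binding protein genes past the filter were lower in iPSC, Gbp7 from 738 and 457 to 4 and 7, but 4 of the 7 passed through the day 7 libraries only and had to be lower. Of 19 H2 genes of the MHC, which hold many close copies, 13 were lower and 2 were higher. Of the 19, 6 passed the filter through 1 group only and had to differ, H2-Ab1 and H2-Aa among them. H2-Q7 fell from 1519 and 1702 to 5 and 17, while H2-M5 rose from 43 and 32 to 201 and 172 and stood at 332 and 325 in ESC. The MHC class II genes H2-Ab1, at 49 and 84 against 3 and 1, and H2-Aa, at 45 and 120 against 3 in each library, were also lower, as was the invariant chain gene Cd74, at 395 and 758 against 9 and 16. The class II genes H2-Eb1, at 46 and 124 against 36 and 9 (adjusted p = 0.247, limma), and H2-DMb1, at 36 and 63 against 20 and 19 (adjusted p = 0.355, limma), were not called. MEF held Cd74 at 1 and 0, OSK day 3 at 11 and 33 and OSK day 5 at 4 and 508, so the 2 libraries of day 5 stood far apart. Macrophage and blood markers, whose cells also express class II genes, are given with the results above, and their part here was not tested.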
